A study of Mus musculus with 4 samples.

Results

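A set of 10 genes of the two-cell-like program and of its regulators were followed in haploid embryonic stem cells (haESCs) cultured with DMSO or with RDF. They are the zinc finger genes *Zscan4c*, *Zscan4d* and *Zscan4f*, the genes *Tcstv1* and *Tcstv3*, the zinc finger gene *Zfp352*, the developmental pluripotency associated genes *Dppa2* and *Dppa4*, and the chromatin regulators *Rif1* and *Trim28*. The members were chosen by name as the rows with exactly these symbols, and all 10 were found among the 23235 symbols of the files. The 4 RNA-seq samples are 2 of cells given the solvent DMSO and 2 of cells given RDF, a mixture of Repsox (an inhibitor of the TGF-β receptor), DMH1 (an inhibitor of BMP receptors) and Forskolin (an activator of adenylyl cyclase), which the study tested for its effect on the tendency of haESCs to become diploid. All 4 come from HG165, 1 androgenetic line (carrying a paternal genome only) made from young C57BL/6 mice, so they say nothing of other lines. The medium was serum medium with leukemia inhibitory factor. The study's methods limit feeder cells to a few kinds of analysis, and RNA-seq is not named among these. The dose and duration of RDF and the share of cells still haploid are not given for these samples in the sources used here, and nothing says that the replicates were separate cultures, so the p-values measure the spread between samples, which may be technical.

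In mouse, the two-cell embryo is the stage at which most of the zygotic genome is first transcribed. A small and changing minority of embryonic stem cells in culture re-enters a transcriptional state like that of this stage, with transcripts of *Zscan4*, *Tcstv* and *Zfp352* genes and of the retrovirus MERVL. *Dux* and, upstream of it, *Dppa2* and *Dppa4* act as activators of this program, whereas *Trim28* and *Rif1* are among the chromatin factors that keep it silent in most cells.

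In these cells, 1 member rose, 2 fell and 1 low member was several-fold lower with RDF. *Rif1* was 1.45-fold higher, *Dppa2* and *Dppa4* were at 0.79 and 0.858 of their DMSO level, and *Zfp352*, at about 1 FPKM or less, was at 0.249 of it. The 3 *Zscan4* genes overlapped between the groups, *Trim28* did not pass the test, and *Tcstv1* and *Tcstv3* were listed at 0 in every sample. FPKM are fragments scaled to the length of the transcript and to the size of the library, so they can be compared between genes. Genes whose mean over the samples reached 1 FPKM were tested on the log2(FPKM + 1) scale with limma, and a gene was called at an adjusted p under 0.05. Of 11733 genes tested, 13.3% were called higher and 8.28% lower with RDF, 21.6% in all. Of the 10 members, 5 passed the filter, and of these 1 was called higher, 2 were called lower and 2 were not called. With 2 samples in each condition the smallest two-sided p of an exact permutation test is 0.333, and single genes were not tested that way.

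**Figure D1:**
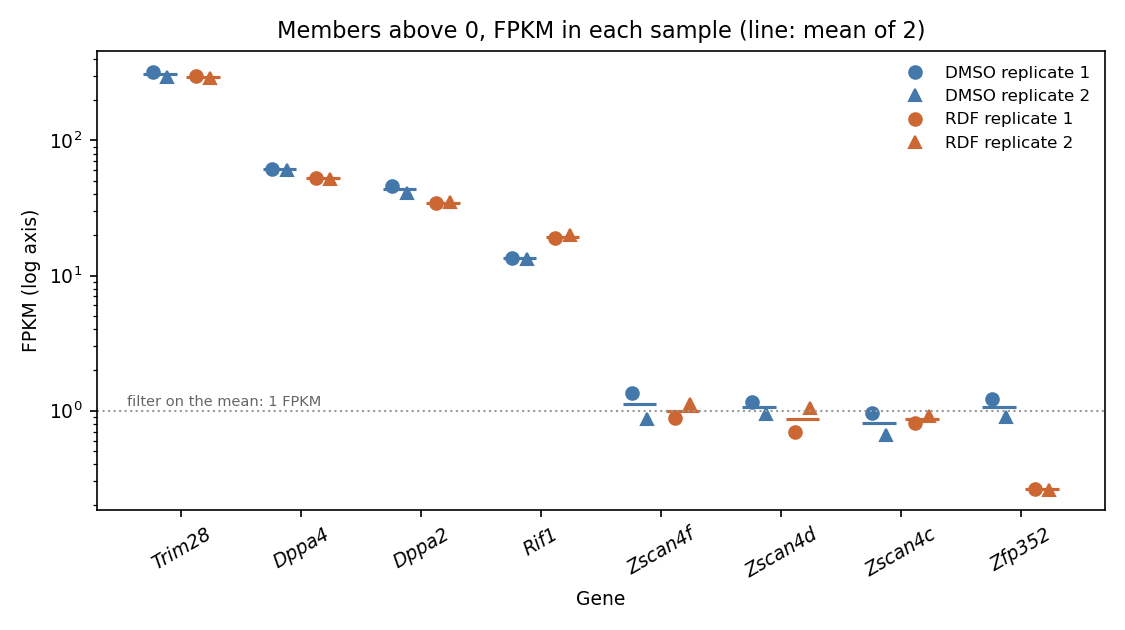
FPKM (log axis) of the 8 members above 0 in each of the 4 samples, with a line at the mean of each condition and a dotted line at the filter of 1 FPKM. The RDF values lie apart from the DMSO values for *Dppa4*, *Dppa2*, *Rif1* and *Zfp352*, and overlap them for *Trim28* and the 3 *Zscan4* genes. Such separation is common, since both RDF values were below both DMSO values in 24.8% of all symbols above 0 and above them in 30.9%.

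The *Zscan4* members cannot be read as 3 independent genes, and their sequences show why. Over 120 bases of the coding sequence (positions 646 to 765 from the start codon, NCBIM37 annotation), the stretch in which they differ most, the 3 read as follows, with capitals at the 9 positions that are not the same in all 3.

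Zscan4c: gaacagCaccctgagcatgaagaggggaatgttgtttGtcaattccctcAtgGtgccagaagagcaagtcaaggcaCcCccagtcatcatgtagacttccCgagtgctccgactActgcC

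Zscan4d: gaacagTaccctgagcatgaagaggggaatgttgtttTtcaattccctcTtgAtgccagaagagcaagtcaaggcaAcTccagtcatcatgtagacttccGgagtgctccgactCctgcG

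Zscan4f: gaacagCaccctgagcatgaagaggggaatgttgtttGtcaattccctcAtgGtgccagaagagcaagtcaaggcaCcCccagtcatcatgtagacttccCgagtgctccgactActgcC

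At all of these positions *Zscan4c* and *Zscan4f* carry the same base and *Zscan4d* another. Over the whole coding sequence of 1521 bases, *Zscan4c* and *Zscan4f* differ at 6 positions (99.61% identity), and each differs from *Zscan4d* at 35 (97.7%). The longest run without any difference among the 3 is 233 bases, and a read that falls within it cannot be assigned to 1 of them.

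A count of shared windows gives the size of this limit for each member. Of all 100-base windows of the transcript, 95.41% for *Zscan4f*, 65.76% for *Zscan4c* and 26.52% for *Zscan4d* also occur in the transcript of another annotated gene, and with 50-base windows these shares are 97.76%, 78.33% and 47.25%. The other genes are *Zscan4b*, *Zscan4e* and the pseudogene *Zscan4-ps2*, besides the members themselves. *Zfp352* shared 0.643% of its 100-base windows (with *Zfp353*) and *Dppa4* 0.976% (with *Gm5501*), and *Dppa2*, *Rif1* and *Trim28* shared none. How the authors assigned reads that match several genes is not given in the sources used here. The values of *Zscan4c* and *Zscan4f* are therefore uncertain as values of single genes, that of *Zscan4d* less so, and the sum over the family is the safer measure. *Zscan4-ps2* is not among the 6 *Zscan4* symbols of the files, so the sum leaves it out. Fragments shared with this pseudogene can still alter the sum. *Tcstv1*, *Tcstv3* and *Zscan4a* were not found in the annotation used here, and their overlap with other genes was not measured.

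**Figure D2:**
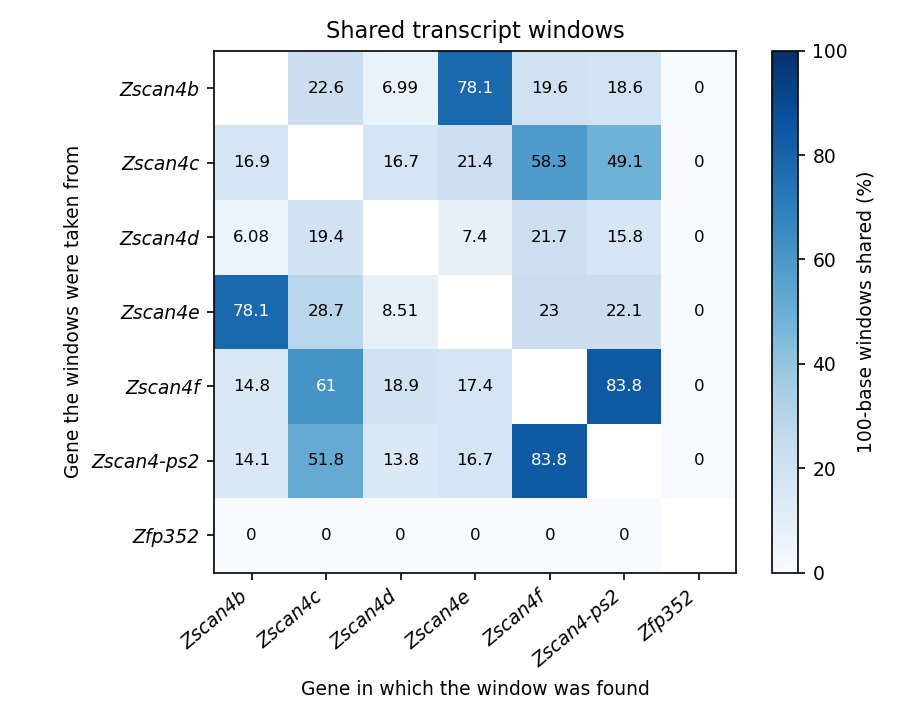
Percent of the 100-base windows of each transcript (rows) that occur in the transcript of another gene (columns), for the annotated *Zscan4* genes and *Zfp352*. *Zscan4f* shared 61% of its windows with *Zscan4c* and 83.8% with *Zscan4-ps2* but 18.9% with *Zscan4d*, and *Zfp352* shared 0 with each of them.

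The *Zscan4* genes lie together on chromosome 7, with *Zscan4c* at chr7:11591071-11595896 (plus strand), *Zscan4d* at chr7:11746992-11751497 (minus strand) and *Zscan4f* at chr7:11983264-11988090 (plus strand) of NCBIM37, the build called mm9 by UCSC. *Zfp352* lies on chromosome 4, at chr4:89885511-89892393 (plus strand). The windows around their annotated starts, from 250 bases before to 50 after, are shown for *Zscan4c* and for *Zfp352* because these genes of 1 program had different values with RDF. Capitals mark the motif TATAA in the first, and in the second the motif GACAACACAC, the word of 10 bases repeated most often in that window, picked after the sequence was seen.

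Zscan4c, chr7:11590821-11591120, plus strand: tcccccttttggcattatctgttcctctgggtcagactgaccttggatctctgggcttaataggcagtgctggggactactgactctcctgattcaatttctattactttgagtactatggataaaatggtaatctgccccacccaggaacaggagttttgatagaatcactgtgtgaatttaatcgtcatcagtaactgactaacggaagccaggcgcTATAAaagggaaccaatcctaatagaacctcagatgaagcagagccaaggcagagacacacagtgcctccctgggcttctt

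Zfp352, chr4:89885261-89885560, plus strand: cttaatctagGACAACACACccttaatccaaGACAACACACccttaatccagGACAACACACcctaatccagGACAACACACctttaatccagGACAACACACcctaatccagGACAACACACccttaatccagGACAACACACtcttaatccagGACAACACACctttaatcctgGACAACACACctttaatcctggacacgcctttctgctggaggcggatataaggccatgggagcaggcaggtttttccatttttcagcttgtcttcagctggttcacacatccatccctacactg

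The window of *Zscan4f* differed from that of *Zscan4c* at 3 of 300 bases, and that of *Zscan4d*, whose annotated start is shifted by 34 bases, at 7 of the 266 bases in common. All 3 hold TATAA once, starting 31 bases before the annotated start in *Zscan4c* and *Zscan4f* and 65 bases before it in *Zscan4d*. TATAA is common, since 23.6% of 22380 promoters of this length hold it on either strand, those of *Zfp352* and *Dppa2* included. The windows of *Dppa4*, *Rif1* and *Trim28* held none. The *Zfp352* window held GACAACACAC in 9 copies, a motif found on either strand in 11 of the 22380 promoters (0.0492%). These matches describe letters only.

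The *Zscan4* genes encode zinc finger proteins with a SCAN domain that act in telomere lengthening in embryonic stem cells, and their transcripts are the usual marker of the two-cell-like state. *Zscan4f* was at 1.36 and 0.864 FPKM in DMSO replicates 1 and 2 and at 0.874 and 1.12 FPKM in RDF replicates 1 and 2. *Zscan4d* was at 1.16 and 0.95 FPKM with DMSO and at 0.698 and 1.05 FPKM with RDF. *Zscan4c* was at 0.965 and 0.661 FPKM with DMSO and at 0.807 and 0.912 FPKM with RDF. In all 3 the groups overlapped, and the 2 samples of a condition lay further apart than the means of the conditions. *Zscan4f*, the only one over the filter, had a log2 fold change of -0.07 (SE 0.156, adjusted p = 0.759 by limma). The 95% interval ran from -0.45 to 0.31, so changes of either sign within these bounds were not excluded. The sign for *Zscan4f* turned when RDF replicate 1 was left out (0.01). Without DMSO replicate 1 its mean was under the filter and it was not tested. Both RDF values were above the DMSO value left in that case (0.864 FPKM).

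The other 2 members were too low for the test, at a mean of 0.964 FPKM (*Zscan4d*) and 0.836 FPKM (*Zscan4c*) over the 4 samples. With a filter at 0.1 FPKM, chosen after the data were seen, their adjusted p was 0.504 and 0.845. Between 17.2 and 29.4 fragments per sample stood behind each of the 3 values, as estimated from FPKM, transcript length and depth.

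Summed over the 6 *Zscan4* symbols of the files, the level was 4.78 and 3.56 FPKM with DMSO and 3.2 and 3.97 FPKM with RDF, or 4.17 ± 0.865 against 3.58 ± 0.539 (mean ± SD, n = 2 each). The sums overlapped, and the difference of -0.585 FPKM was smaller than the SD of the DMSO samples. The remaining copies were lower still. *Zscan4e* lay between 0.261 and 0.414 FPKM and *Zscan4b* between 0.1 and 0.236 FPKM, both with overlapping groups. *Zscan4a* was at 0.648 and 0.684 FPKM with DMSO and at 0.434 and 0.409 FPKM with RDF, so that its RDF values were below its DMSO values. This held for 18% of the symbols above 0 with a mean under 1 FPKM. With a filter at 0.1 FPKM the adjusted p of *Zscan4a* was 0.155.

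*Tcstv1* and *Tcstv3*, 2 genes of another family expressed at the two-cell stage and in two-cell-like cells, were at 0 FPKM in all 4 samples. They are too low to judge. An exact 0 in FPKM can be a failed estimate as well as a lack of fragments, and no transcript length was at hand for them, so no upper limit is given. In all, 5223 symbols of the files were at 0 in every sample, these 2 included.

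*Zfp352*, a zinc finger gene that is transcribed at the two-cell stage, was the member whose level differed most. It was at 1.22 and 0.889 FPKM with DMSO and at 0.265 and 0.26 FPKM with RDF. Both RDF values were below both DMSO values, as in 24.8% of the 18012 symbols above 0 in any sample and in 18% of the 6279 such symbols with a mean under 1 FPKM. Its mean over the 4 samples, 0.658 FPKM, was under the filter, so the test did not include it. The mean was 4.02 times as high in the DMSO samples as in the RDF samples, a ratio of FPKM, while on the log2(FPKM + 1) scale, which shrinks changes of low genes, the difference was -0.70 and with a pseudocount of 0.1 it was -1.66. With the filter at 0.1 FPKM its adjusted p was 0.0152 by limma (SE 0.116), a fit in which 6.1% of 15273 genes were called lower, and with no filter, where 3.36% of genes were called lower, it was 0.0306. Behind these values stood an estimated 26.5 and 23.1 fragments with DMSO and 7.47 and 6.82 with RDF, few enough that the size of the fold is loosely known.

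*Zfp352* and *Zscan4* thus had unlike values in the same samples. *Zfp352* stood at 25.5% and 25% of the summed *Zscan4* level in the DMSO samples and at 8.26% and 6.57% in the RDF samples. The difference between their responses was not tested. In a bulk sample, fewer cells in a two-cell-like state and less RNA of these genes per cell cannot be told apart.

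*Dppa2* and *Dppa4* encode SAP domain proteins that work together, bind CpG-rich promoters and prime early embryonic and germline genes, *Dux* among them. They are neighbours on chromosome 16, *Dppa4* at chr16:48283848-48294405 and *Dppa2* at chr16:48310590-48319836, both on the plus strand and 16184 bases apart. *Dppa2* was at 46.2 and 41.1 FPKM with DMSO and at 34.2 and 34.8 FPKM with RDF. *Dppa4* was at 61.7 and 60.4 FPKM with DMSO and at 52.5 and 52.2 FPKM with RDF. For both genes each RDF value was below each DMSO value, as in 24.8% of all symbols above 0 in any sample.

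*Dppa2* had a log2 fold change of -0.33 (SE 0.0709, 95% interval -0.50 to -0.16, adjusted p = 0.0245 by limma), and *Dppa4* one of -0.22 (SE 0.0516, 95% interval -0.34 to -0.09, adjusted p = 0.0327). Both calls were close to the threshold. That of *Dppa2* was lost without DMSO replicate 1 (adjusted p = 0.0695), RDF replicate 1 (0.121) or RDF replicate 2 (0.113) and held without DMSO replicate 2 (0.0134), and that of *Dppa4* was lost without any 1 of the 4 samples (0.0718 to 0.142). Without the mean-variance trend neither was called (0.0515 and 0.0765).

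Of the 3 other genes of the *Dppa* name 1 fell, 1 was not called and 1 was at 0. *Dppa5a*, which encodes a KH domain RNA-binding protein abundant in embryonic stem cells and is not related in sequence to *Dppa2*, was at 5493 and 5539 FPKM with DMSO and at 3232 and 2839 FPKM with RDF, and fell (log2 fold change -0.86, adjusted p = 0.00421 by limma), with an adjusted p of 0.0602 when RDF replicate 2 was left out. *Dppa3*, a maternal factor that protects DNA methylation in the zygote, was at 25.9 and 29.9 FPKM with DMSO and at 27.1 and 26.6 FPKM with RDF and was not called (adjusted p = 0.681). *Dppa1* was listed at 0 in all 4 samples. *Dux* itself, named here after its value was seen, was at 0.235 and 0.275 FPKM with DMSO and at 0.365 and 0.143 FPKM with RDF, so that its groups overlapped, and at this level it is too low to judge.

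Genes listed as targets of *Dppa2* and *Dppa4* are mostly germline genes. Of 17 listed, 16 were in the files and 14 were tested, of which 1 was called higher and 1 lower, 14.3% against 21.6% of all genes tested, with a median log2 fold change of 0.00 against 0.03 over all genes. *Hormad1*, a meiotic chromosome axis gene, rose from 7.59 and 6.15 FPKM to 9.15 and 9.67 FPKM (adjusted p = 0.0425 by limma). *Tuba3a*, a testis tubulin gene with near-identical relatives, fell from 12.6 and 12.7 FPKM to 9.26 and 10.5 FPKM (adjusted p = 0.0346). Its relative *Tuba3b* went the other way, from 1.9 and 1.76 FPKM to 2.525 and 2.57 FPKM, and was not called (log2 fold change 0.33, adjusted p = 0.0664 by limma). Both calls were lost when a sample was left out, that of *Hormad1* without DMSO replicate 2, RDF replicate 1 or RDF replicate 2 (up to 0.184) and that of *Tuba3a* without any 1 of the 4 (0.0683 to 0.141).

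*Rif1* encodes a large protein that sets the timing of DNA replication, limits resection at broken DNA ends, and in embryonic stem cells takes part in silencing *Zscan4* and retroviral repeats. The gene spans chr2:51928357-51977903 on the plus strand. It was at 13.5 and 13.3 FPKM with DMSO and at 18.8 and 20.1 FPKM with RDF. The RDF values were 19.4 ± 0.861 FPKM and the DMSO values 13.4 ± 0.145 FPKM (mean ± SD, n = 2 each), and they did not overlap. Both RDF values were above both DMSO values in 30.9% of all symbols above 0 in any sample. *Rif1* rose by a log2 fold change of 0.50 (SE 0.0663, 95% interval 0.34 to 0.66, adjusted p = 0.00603 by limma). The call was lost without RDF replicate 2 (0.0542).

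Its longest annotated transcript has 8502 nt, and long transcripts were higher with RDF in general. Among the 1213 tested genes with a longest transcript of at least 6000 nt the median log2 fold change was 0.17, with 24.3% called higher and 2.97% lower. Among the 10337 shorter ones it was 0.01, with 12.1% called higher and 8.93% lower. The part of length in the value of *Rif1* was not tested.

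*Trim28* encodes the corepressor KAP1, which is brought to retroviral repeats by KRAB zinc finger proteins and recruits the histone methyltransferase SETDB1. It lies at chr7:13609501-13616384 on the plus strand. It was at 323 and 294 FPKM with DMSO and at 300.4 and 288 FPKM with RDF, and the groups overlapped. The log2 fold change was -0.07 (SE 0.0679, 95% interval -0.23 to 0.10, adjusted p = 0.507 by limma), and without DMSO replicate 1 it was 0.00. *Trim28* was the most abundant member, with 98.2% of the symbols above 0 at a lower mean level, followed by *Dppa4*, *Dppa2* and *Rif1*. These 4 did not overlap with each other in either condition. Below *Rif1*, the values of *Zscan4f*, *Zscan4d*, *Zfp352* and *Zscan4c* overlapped from neighbour to neighbour with DMSO, whereas with RDF *Zfp352* came apart below the 3 *Zscan4* genes.

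Other repressors of the two-cell-like program were read from a list of 44 genes that holds *Rif1* and *Trim28*, of which 42 were in the files and all of these were tested. With RDF 8 were called higher and 1 lower, 19% and 2.38% against 13.3% and 8.28% of all genes, and the median log2 fold change was 0.11 against 0.03. In either direction 21.4% were called, near the 21.6% of all genes. The 33 that were not called ranged from -0.17 to 0.45. Without RDF replicate 2 the counts were 4 and 0.

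*Zfp42* (REX1), a zinc finger gene of naive pluripotent cells, was at 25.9 and 25.9 FPKM with DMSO and at 48.1 and 47 FPKM with RDF (log2 fold change 0.85, adjusted p = 0.000836 by limma). *Rcor1*, the CoREST scaffold of the histone demethylase LSD1, rose from 7.5 and 7.07 FPKM to 11.3 and 13.3 FPKM (0.68), with an adjusted p of 0.0515 without RDF replicate 2. *Mga*, the DNA-binding scaffold of the Polycomb complex PRC1.6, rose from 8.16 and 8.51 FPKM to 12.8 and 14.4 FPKM (0.65). Each of the 3 had RDF values above both DMSO values, as in 30.9% of all symbols above 0. *Atrx*, a chromatin remodeller that deposits histone H3.3 with DAXX, rose from 13.3 and 13.1 FPKM to 20.9 and 21 FPKM (0.62). *Zmym2*, a zinc finger gene, rose from 7.99 and 8 FPKM to 11.1 and 11.8 FPKM (0.47), and its call was lost without RDF replicate 1 or RDF replicate 2 (up to 0.0703). *L3mbtl2*, another subunit of PRC1.6 and named here after its value was seen, fell from 36.9 and 37.3 FPKM to 28.8 and 27.2 FPKM (-0.39, adjusted p = 0.00843), with an adjusted p of 0.066 without RDF replicate 2.

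Of the 7 listed repressors with a transcript of at least 6000 nt, 3 were called higher, where 24.3% of all genes of that length were. Of the 35 shorter ones 5 were called higher and 1 lower, where 12.1% and 8.93% of all shorter genes were. *Rif1*, *Atrx* and *Mga* are the 3 long ones, and the part of length in their values was not tested. A list of 19 genes of telomeres, DNA breaks and replication origins was also read, not all of which are known to act with *Rif1*. Of these, 18 were tested and 1 was called in each direction, 11.1% in all against 21.6% of all genes tested. The difference rests on few genes. *Dbf4*, the activating subunit of the origin kinase CDC7, rose from 40.5 and 40.2 FPKM to 51.2 and 47.8 FPKM (log2 fold change 0.29, adjusted p = 0.0212 by limma), a call lost without DMSO replicate 2, RDF replicate 1 or RDF replicate 2 (up to 0.113). *Dmc1*, a meiotic recombinase gene, fell from 10.8 and 10.8 FPKM to 8.6 and 8.75 FPKM (-0.29, adjusted p = 0.0332), a call lost without any 1 of the 4 samples (0.0926 to 0.128).

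**Figure D3:**
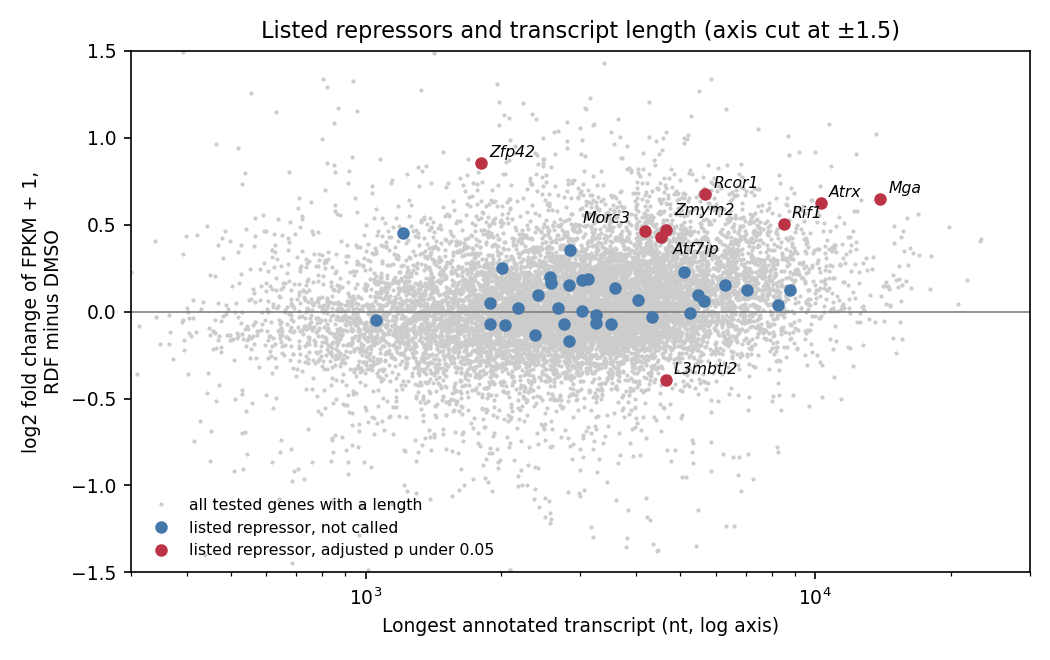
Log2 fold change of FPKM + 1 (RDF minus DMSO, axis from -1.5 to 1.5, points beyond it not drawn) against the longest annotated transcript (nt, log axis) for all tested genes with a length (grey) and the listed repressors (blue, red where the adjusted p was under 0.05). The 8 repressors called higher include the long *Rif1*, *Atrx* and *Mga* and the short *Zfp42*, and *L3mbtl2* is the only one called lower.

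A wider set of two-cell genes was listed with earlier results of these data known. Its counts therefore describe the listed genes and are no test of the program. Besides the members, 64 such genes were listed, of which 47 were in the files, 10 of them at 0 in all samples. Of the 37 above 0, 22 had both RDF values below both DMSO values and 1 had both above, against 24.8% and 30.9% of all symbols above 0. Of the 21 of them with a mean under 1 FPKM, 9 were below and 0 above, against 18% and 19.5%. With no filter 7 of the 37 were called lower (18.9%, against 3.36% of all genes) and 1 higher. With the filter of 1 FPKM 16 were tested, of which 10 were called lower and 1 higher, where 8.28% and 13.3% of all genes were. Of these 10, however, 8 had an RDF mean under 1 FPKM and passed the filter only through their DMSO values, so this count says little of the list. Many of the listed genes are copies of one another, so the counts are not of independent genes.

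*Sp110*, an interferon-inducible nuclear body gene, was at 2.78 and 2.67 FPKM with DMSO and at 0.57 and 0.696 FPKM with RDF (log2 fold change -1.19). Its RDF mean of 0.633 FPKM was under the filter of 1 FPKM, which *Sp110* passed only through its DMSO values. With the filter at 0.1 FPKM its adjusted p was 0.00295 by limma, a fit in which 6.1% of 15273 genes were called lower. It shared none of its 100-base windows with another gene. The *Eif1a*-like genes *Gm5662*, *Gm2022* and *Gm2016* were lower with RDF. With *Gm8300*, which was not called, they summed to 10.4 and 12 FPKM with DMSO and 5.5 and 4.93 FPKM with RDF. *Gm5662* had the largest change of these (-0.96, adjusted p = 0.0032), but shared 59.1% of its 100-base windows with other genes, and *Gm2016* shared 60.1%. *Gm2022* and *Gm2016* had RDF means of 0.959 and 0.543 FPKM and passed the filter of 1 FPKM only through their DMSO values. Their calls at that filter were lost without RDF replicate 1 or RDF replicate 2. The deubiquitinase genes *Dub1a* (-0.80) and *Usp17l5* (-0.70) were lower with RDF. With *Dub1* they summed to 5.37 and 5.25 FPKM with DMSO and 2.6 and 1.84 FPKM with RDF. *Dub1a* shared 10.35% and *Usp17l5* 32.34% of its 100-base windows with other genes. Their RDF means of 0.88 and 0.542 FPKM were also under the filter of 1 FPKM. With the filter at 0.1 FPKM their adjusted p was 0.00998 and 0.0233 by limma. At the filter of 1 FPKM the call of *Dub1a* was lost without RDF replicate 2. That of *Usp17l5* was lost there without RDF replicate 1 or RDF replicate 2. With either DMSO sample left out, *Gm2016* and *Usp17l5* were under the filter and not tested. In each of these sums both RDF samples were below both DMSO samples. *Calcoco2*, an autophagy receptor gene named here after its value was seen, was the 1 gene that rose, from 18.9 and 20.9 FPKM to 25.5 and 25.8 FPKM (0.35, adjusted p = 0.0196), and its call was lost without DMSO replicate 1, RDF replicate 1 or RDF replicate 2 (up to 0.109). *Calcoco2* and *Sp110* are also expressed outside the two-cell stage.

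The number of listed two-cell genes called lower depended on the filter and the samples, and it describes a list written with earlier results known. At the filter of 1 FPKM it says little, since genes could pass through their DMSO values alone. It was 12 of 32 tested at a filter of 0.1 FPKM (37.5%, against 6.1% of all genes) and 1 of 3 at a filter of 5 FPKM (33.3%, against 9.78%). With the filter of 1 FPKM it was 6 of 12 tested without DMSO replicate 1, 7 of 13 without DMSO replicate 2, 5 of 17 without RDF replicate 1 and 2 of 17 without RDF replicate 2, where 6.49%, 5.89%, 2.18% and 2.03% of all genes were called lower. *Sp110* and *Gm5662* kept their calls at the filter of 0.1 FPKM, and *Gm5662* also in each fit with 1 sample left out. Those fits say little of *Sp110*, which passed their filter only through its DMSO values. Both genes were under the filter of 5 FPKM and were not tested there.

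**Figure D4:**
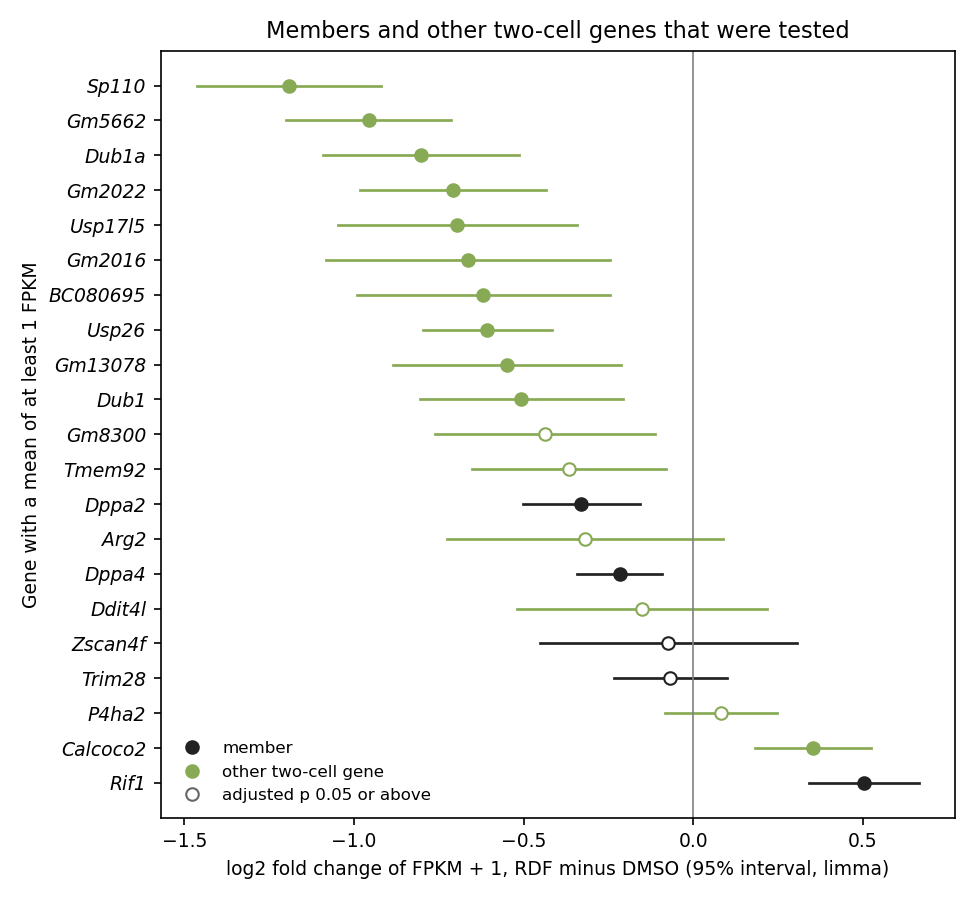
Log2 fold change of FPKM + 1 (RDF minus DMSO) with its 95% interval for the 5 members (black) and 16 other two-cell genes (green) that passed the filter of 1 FPKM, with open circles at an adjusted p of 0.05 or above. The 10 green genes called lower lie between -1.19 (*Sp110*) and -0.51 (*Dub1*), to the left of *Dppa2* and *Dppa4*, while *Calcoco2* and *Rif1* lie to the right of 0. Of the 10, 8 had an RDF mean under 1 FPKM and passed the filter only through their DMSO values, so their place says little.

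Marker genes bear on the cells behind these values. All 12 listed markers of embryonic stem cells were detected and tested. With RDF 5 were called higher and 4 lower, 41.7% and 33.3% against 13.3% and 8.28% of all genes tested. Their summed level was 7985 and 7919 FPKM with DMSO and 5239 and 4774 FPKM with RDF, most of it *Dppa5a*. The 10 fibroblast markers summed to 76.8 and 72.3 FPKM with DMSO and 60.3 and 64.3 FPKM with RDF, most of it *Fbln1*, which was not called. Of the 6 fibroblast markers tested, *Col1a1*, *Col1a2* and *Postn* were called lower (50%) and *Dcn* higher (16.7%). *Postn* had an RDF mean of 0.69 FPKM and passed the filter only through its DMSO values. *Tcf21* was at 0 or under 0.15 FPKM. *Lum* and *Pdgfra*, both under the filter, had RDF values above their DMSO values, as in 19.5% of symbols above 0 with a mean under 1 FPKM. The 7 trophoblast markers summed to 120 and 113 FPKM against 148 and 147 FPKM, most of it *Krt18*, *Krt8* and *Tfap2c*. Of the 5 tested, *Tfap2c* and *Hand1* were called higher (40%) and *Eomes*, *Krt8* and *Krt18* were not called. *Cdx2* and *Elf5* were under 0.74 FPKM. The 8 primitive endoderm markers summed to 18 and 17.5 FPKM against 22.6 and 25.4 FPKM, most of it *Col4a1*, which was not called. Of these 8, 6 had both RDF values above both DMSO values and 0 had both below, against 30.9% and 24.8% of all symbols above 0. Of the 3 tested, *Gata6* was called higher (33.3%), and *Gata4* and *Col4a1* were not called. *Sox17* was under 0.82 FPKM. The call of *Gata6* was lost without RDF replicate 1 or RDF replicate 2 (up to 0.173) and that of *Hand1* without RDF replicate 2 (0.0658). The part of these cells in the values of the members was not tested. Depth, estimated from the steps of low FPKM values, was 9540000 to 12400000 fragments per sample.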

How the data were processed

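RNA-seq of the 4 HG165 samples was analysed from the deposited FPKM, 1 value per gene symbol and sample. The authors prepared stranded mRNA libraries from 150 ng of total RNA, and mapped and quantified them with TopHat2 2.0.14, Bowtie2 2.1.0 and Cufflinks 2.2.1 on mm9, per the labels and the submitters' processing notes. The deposited FPKM are scaled to library size and transcript length. The strand setting and the treatment of multiply mapped reads are not given in the sources used here.

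Conditions and replicate numbers came from the sample titles. RDF was compared with DMSO by limma 3.58.1 in R 4.3.3 (lmFit, eBayes with trend, two-sided) on log2(FPKM + 1), over the 11733 genes whose mean reached 1 FPKM, with Benjamini-Hochberg adjustment over all of them and a threshold of 0.05. Log2 fold changes on this scale understate those of low genes. The fit was tested on simulated data. The alternatives were other pseudocounts, filters and scalings, no trend, a replicate block and leaving out each sample. The filter at 0.1 FPKM was added after the data were seen. The members and the gene lists were chosen with earlier results of these data known. The text names all members, the other *Zscan4*, *Tcstv* and *Dppa* symbols, and of each other list the called genes with the largest change, at most 6. For marker lists of other cells it also names genes at low levels and those that make up most of a sum. *Tuba3b* is named as a relative of *Tuba3a*.

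FPKM hold no fragment numbers. Depth was estimated from symbols with 1 annotated transcript of at least 1500 nt, whose FPKM times length should step by whole fragments. At the estimates given, 39.5% to 43.1% of low values came within 0.1 of whole fragments, against 20% for evenly spread values, so depth and fragments per gene are approximate. Sequences, lengths and positions came from the NCBIM37 genome and its GENCODE annotation, which may differ from the UCSC models of the authors. Promoters were 300 bases of that genome.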

Additional observations from a re-analysis of the deposited data

How the results depend on the processing

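Over all genes, 942 were called higher and 606 lower with no filter on low values, and 311 to 1188 and 238 to 763 when 1 sample was left out, against 1561 and 972. Without the mean-variance trend 0 members were called lower, and with 1 sample left out 0 to 1 were called higher and 0 to 1 lower. The repressors called higher numbered 4 to 9 and those called lower 0 to 1 with 1 sample left out. In those fits the condition with 1 sample is assumed to vary like the other. In the fits that tested these genes, the sign turned for *Trim28* without DMSO replicate 1 and for *Zscan4f* without RDF replicate 1, neither of them called. With 1 sample left out the log2 fold change of *Trim28* ranged from -0.1365 to 0.0021. That of *Zscan4f* ranged from -0.2421 to 0.0146, but without DMSO replicate 1 it was under the filter and not tested. *Dppa2* had an adjusted p of 0.0578 with no filter. With 100-base instead of 50-base windows the shared part was 65.76% for *Zscan4c* and 26.52% for *Zscan4d*. *Dppa2* and *Dppa4* each kept their call in 7 of 12 alternatives and *Rif1* in 11 of 12. The cause of these changes was not tested. Where 1 sample was left out, the smaller number of samples and the particular sample removed cannot be told apart.

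The replicate numbers were shared between the conditions, but the deviations of the same-numbered samples correlated weakly across genes (Pearson r 0.134, Spearman rho 0.114 over 11733 genes, which are not independent), and 2 pairs do not establish a pairing. With a replicate block 1651 genes were called higher and 1066 lower, and 11 listed repressors were called higher. *Dppa2*, *Dppa4* and *Rif1* had adjusted p-values of 0.0234, 0.0334 and 0.0086, and no member changed its call.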

Other observations

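Another family of the two-cell program was followed after its values were seen. The *Tdpoz* genes encode proteins with TRAF and BTB domains, and their 5 symbols summed to 2.22 and 2.09 FPKM with DMSO and to 0.484 and 0.515 FPKM with RDF. *Tdpoz4* made up most of this, at 1.66 and 1.62 FPKM with DMSO and 0.404 and 0.258 FPKM with RDF, and its mean over the 4 samples was under the filter. With the filter at 0.1 FPKM its adjusted p was 0.00506 by limma, a fit in which 6.1% of 15273 genes were called lower. Behind its values stood an estimated 17.6 and 20.6 fragments with DMSO and 5.58 and 3.3 with RDF. The size of the change is thus loosely known. *Tdpoz4* shared 0% of its 100-base windows and 5.26% of its 50-base windows with other annotated genes.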
